A study of Mus musculus with 2 samples.

Results

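Thyroid hormone genes of the liver were compared between mice with both copies of Yap (Yap+/+) and mice with 1 copy (Yap+/-). The set holds 8 genes, of 18193 with a probe set of exactly 1 gene symbol: Serpina7 and Ttr (carriers in blood), Slc16a10 (membrane transport), Dio1 (activation), Thra and Thrb (nuclear receptors), and Thrsp and Me1 (hepatic targets). They were chosen by symbol, with earlier results of these same values known, so their differences are a description and not a test. Livers of untreated C57BL/6 mice, bred to that background for at least 6 generations, were taken on postnatal day 30. Livers of 5 mice per genotype were pooled and each pool was read on 1 Affymetrix 3-prime expression array (biotin label), where each probe set combines several short probes to a transcript. Each genotype is therefore 1 sample, with no replicate, no SE and no p-value, and the spread between mice is not known. The sources used here do not give the sex or feeding of the mice, or which part of Yap the disrupted allele lacks.

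Thyroxine made by the thyroid travels in blood bound to thyroxine-binding globulin, transthyretin and albumin, all made by hepatocytes. Membrane transporters carry it into cells, deiodinases convert it to the active triiodothyronine, and that hormone binds the nuclear receptors TRalpha and TRbeta, which pair with retinoid X receptors on the promoters and enhancers of target genes. In liver it is known for driving lipogenesis, cholesterol turnover, glucose output and the deiodinase gene Dio1 itself, and TRbeta is the main receptor of hepatocytes.

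Of the 8 genes, Serpina7 was 2.37-fold higher in the Yap+/- pool, Thrsp and Me1 were moderately lower, Thra was slightly lower, and Dio1, Ttr and Slc16a10 differed little. All values are deposited log2 values, and a difference is Yap+/- minus Yap+/+. A gene was represented by its brightest probe set over both arrays, and it was called measured where the mean of both arrays was at least 6 on the log2 scale, which 9299 genes and 7 of the 8 passed. Thrb was under that level. At a threshold of 2-fold, 1 of the 7 measured genes was higher and 0 were lower, beside 0.0968% of all measured genes higher and 0.226% lower. Their median difference was 0.00, equal to that of all measured genes, with 3 higher, 3 lower and 1 equal, beside 48.8% higher and 49.6% lower of all measured genes. As a scale for these differences, the 2 brightest probe sets of a gene disagreed with a robust SD of 0.17 over 3406 genes, which covers noise within this pair of arrays only. Levels of different probe sets were not set against each other, because probes differ in how strongly they bind.

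**Figure D1:**
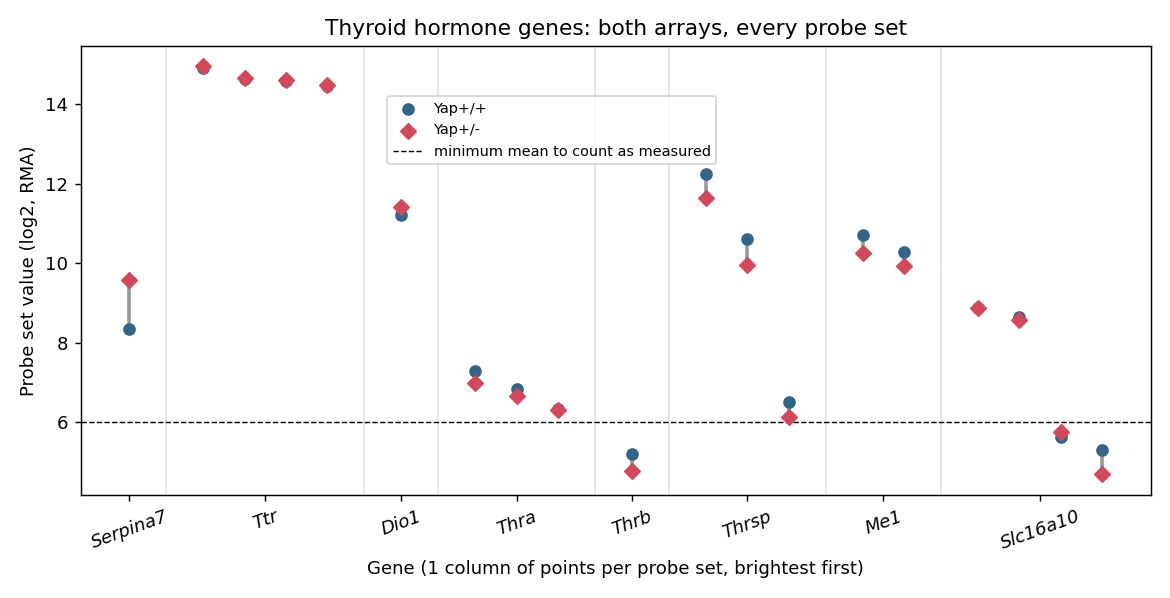
Log2 values of all 19 probe sets of the 8 genes on both arrays (circle Yap+/+, diamond Yap+/-, joined by a line; dashed line at the minimum mean of 6). Serpina7 stands at 8.34 and 9.59, all 3 probe sets of Thrsp are lower in Yap+/-, and the 4 pairs of Ttr lie on top of each other.

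Serpina7, the X-linked gene of thyroxine-binding globulin, had the only difference past 2-fold among the 8. It read 8.34 in Yap+/+ and 9.59 in Yap+/-, a log2 difference of 1.24 or 2.37-fold higher. The array carried 1 probe set with its symbol, so no other probe set could be set beside it. The difference was 7.20 times the probe set disagreement of 0.17, and 5 measured genes were further up, since Serpina7 ranked 6 from the top of 9299. Thyroxine-binding globulin is the carrier with the tightest grip on thyroxine, and in rodents it is known as a protein of the growing animal that becomes scarce in adults. The genes whose difference lay nearest, over these 2 arrays, were Hes1 (1.29), a transcription factor downstream of Notch, Asns (1.07), Nlrp12 (1.42), Angptl8 (1.43) and S100a9 (1.43), which describes likeness of size only.

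**Figure D2:**
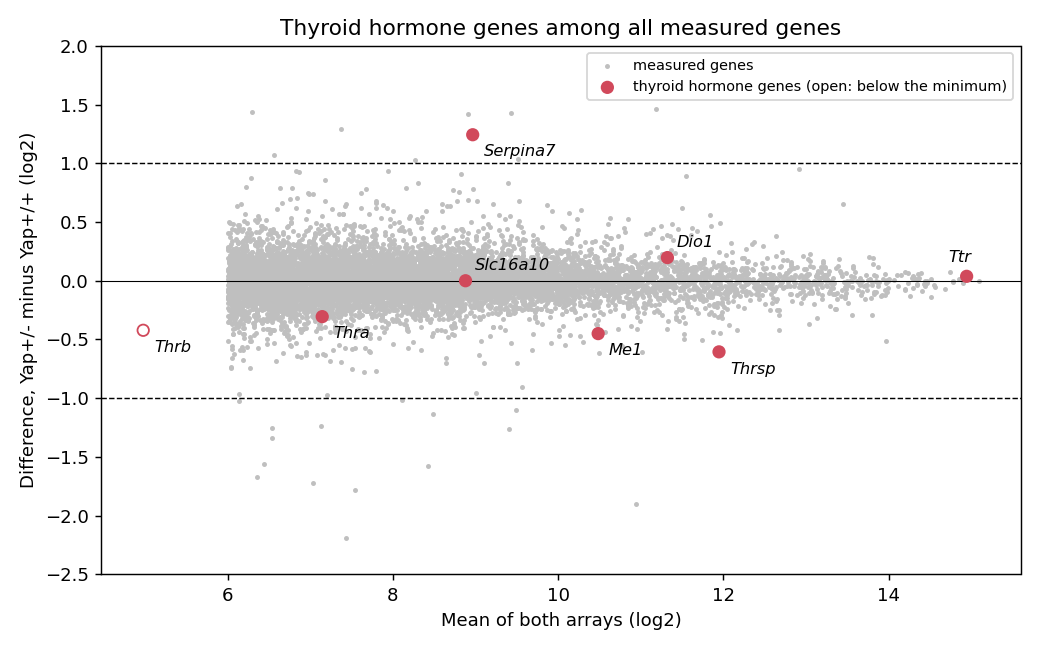
Difference, Yap+/- minus Yap+/+ (log2), against the mean of both arrays for 9299 measured genes (grey) and the 8 thyroid hormone genes (red; Thrb, open, is under the minimum). Dashed lines mark 2-fold; 6 genes below -2.5 lie outside the axis, and Serpina7 at 1.24 is the one red point past a dashed line.

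The proximal promoter of Serpina7 is printed because it is the gene past 2-fold. The 250 bases before the first RefSeq start (GRCm38.p6, chrX:139085237-139085486, minus strand) follow, with matches to the motifs searched in capitals.
Serpina7: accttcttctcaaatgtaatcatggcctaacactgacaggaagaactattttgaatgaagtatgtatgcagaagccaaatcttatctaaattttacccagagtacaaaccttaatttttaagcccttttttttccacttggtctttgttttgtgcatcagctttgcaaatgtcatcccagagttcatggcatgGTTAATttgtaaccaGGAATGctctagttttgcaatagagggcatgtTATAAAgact
From left to right the capitals mark GTTAAT (the core of the HNF1 motif, from -57 to -52), GGAATG (the core of the TEAD motif, from -42 to -37) and TATAAA (the TATA box, from -10 to -5), with positions counted back from the start site. Of 32851 promoter windows of that length, 6.43% held GTTAAT, 12.6% held GGAATG and 12.4% held TATAAA on either strand. TEAD proteins are the DNA-binding partners of YAP, and HNF1 factors act on many hepatocyte genes. The TEAD core was not particular to Serpina7, since GGAATG also lay, on the minus strand, before the second RefSeq start of Me1 (from -54 to -49), a gene lower in Yap+/-, and of Thrb (from -96 to -91). A match describes letters in this window and is not a measured binding site. RefSeq lists another start that lies closer to the gene body, and before it the same GGAATG ran from -59 to -54 and the same TATAAA from -27 to -22.

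Relatives of Serpina7 and hepatocyte transcription factors were read beside it. Of 14 other Serpina genes listed, 6 were measured, 3 higher and 3 lower with a median of 0.04 and 0 past 2-fold, and the highest were the acute-phase gene Serpina3n at 0.26 and Serpina12 at 0.25 and the lowest Serpina10 at -0.06. Of 12 hepatocyte factors listed, 9 were measured, 5 higher and 4 lower with a median of 0.05 and 0 past 2-fold. Foxa3 (0.47) and Cebpb (0.39) were highest, and Onecut1 (-0.60) and Nr2f2 (-0.47) lowest, although the 3 measured probe sets of Nr2f2 split 1 higher and 2 lower.

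Ttr encodes transthyretin, the other dedicated thyroxine carrier, and it was alike in both pools. The brightest probe set went from 14.92 in Yap+/+ to 14.96 in Yap+/-, a difference of 0.04, and the other probe sets differed by 0.03, 0.02 and 0.04. All 4 were slightly higher in Yap+/- and all lay within the probe set disagreement. They also sit near the top of the range of values, 15.2, which leaves little room to see a difference. The remaining carrier genes read alike, with Alb (albumin) at 15.1 on both arrays. Rbp4, whose product binds transthyretin in plasma, read 14.5 on both arrays and differed by -0.02. Alb and Rbp4 also sit near the top of the range, so their likeness carries the same limit. Serpina6, the glucocorticoid carrier of the same serpin clade, read 12.0 and 12.1, and the 4 measured genes of this carrier list had a median of -0.005. Markers of other tissues that make transthyretin were dim or near the minimum. The 4 choroid plexus markers had 0 measured, with values up to 5.33. Of the islet hormone genes, Ins2 just passed the minimum at 6.00 and 6.04, Sst read 5.68 and 5.60, and Gcg read 2.88 and 2.92, where the lowest value on the arrays was 2.49.

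Slc16a10, a transporter of aromatic amino acids and thyroid hormones, showed no difference on its brightest probe set, which read 8.88 on both arrays. The deposited values were identical to the last digit, as they were for 4.74% of non-control probe sets. Its next probe set went from 8.66 to 8.57, a difference of -0.08. The other probe sets were under the minimum and went in opposite directions, from 5.62 to 5.76 and from 5.32 to 4.69, levels that are not shown to be above background. Among other transporters of thyroid hormone or its partners, 8 of 12 listed were measured, 4 higher and 4 lower with a median of -0.002 and 0 past 2-fold. The organic anion carriers Slco1a1 and Slco1a4 differed by -0.47 and -0.24, while Slc7a5 (0.14) and Slco1b2 (0.11) were highest. Slc7a5 lay near the minimum, at 5.97 in Yap+/+ and 6.11 in Yap+/-. For Slco1b2, 2 of its 3 measured probe sets were lower. Of 11 other monocarboxylate transporters, 7 were measured, 3 higher and 4 lower with a median of -0.02, between Slc16a9 at -0.38 and Slc16a4 at 0.15. Slc16a9 lay near the minimum, at 6.32 in Yap+/+ and 5.95 in Yap+/-.

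Dio1, the hepatic deiodinase that makes triiodothyronine from thyroxine, was slightly higher in Yap+/-. On its only probe set the value was 11.2 in Yap+/+ against 11.4 in Yap+/-, a difference of 0.20 or 1.15-fold, which is 1.14 times the probe set disagreement and was exceeded in size by 21.2% of measured genes. The other deiodinase on the list with a value, Dio2, read 4.02 and 3.97, where the median over all probe sets was 4.93 and 4.92. Of 13 genes of deiodination, conjugation and iodotyrosine or tyrosine handling, 9 were measured, 3 higher and 6 lower with a median of -0.06 and 0 past 2-fold. The oestrogen sulphotransferase Sult1e1, which also sulphates iodothyronines, was furthest, from 8.37 to 9.27 (1.87-fold higher), and Sult1c2 was lowest at -0.28.

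Of the receptor genes, Thra read slightly lower in Yap+/- and Thrb was too dim to assess. On its brightest probe set Thra, the gene of TRalpha, went from 7.30 in Yap+/+ to 6.99 in Yap+/-, a difference of -0.31 or 1.24-fold. Its other probe sets went from 6.83 to 6.67 and from 6.34 to 6.31, differences of -0.16 and -0.03. All 3 were lower, but the size ranged from -0.31 to -0.03, so the value for the gene depends on the probe set. Nr1d1, a clock repressor gene whose 3-prime end is known to overlap Thra on the opposite strand, was higher at 7.61 and 7.86. The sources used here do not say whether any Thra probe set lies in the shared stretch.

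The 1 probe set of Thrb, the gene of TRbeta, went from 5.19 in Yap+/+ to 4.77 in Yap+/-, around the median over all probe sets, and neither value is shown to be above background. The nominal difference of -0.42 shrank to -0.14 when 64 was added on the linear scale, so neither its size nor a level of the receptor transcript can be read from it. Among receptor partners and coregulators, 14 of 17 listed were measured, 8 higher and 6 lower with a median of 0.03 and 0 past 2-fold. Rxrb, a partner of both receptors, was highest at 0.30 and the coactivator gene Crebbp was at 0.25 with all 3 of its probe sets higher. The arginine methyltransferase Prmt1 (-0.31) and Rxrg (-0.23) were lowest.

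Thrsp and Me1, classical hepatic targets of thyroid hormone, were lower in Yap+/- on every probe set. Thrsp, also called Spot14, is a lipogenic regulator whose RNA responds quickly to triiodothyronine and to carbohydrate. It read 12.2 in Yap+/+ and 11.6 in Yap+/-, a difference of -0.61 or 1.52-fold. Its other probe sets went from 10.6 to 9.96 (-0.66) and from 6.50 to 6.14 (-0.36). All 3 were lower, the brightest pair by nearly the same amount. Thrsp ranked 53 from the bottom of 9299, and 0.645% of measured genes were at least 1.5-fold lower.

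Me1 encodes the cytosolic malic enzyme, which makes NADPH for fatty acid synthesis. It read 10.7 in Yap+/+ and 10.3 in Yap+/-, a difference of -0.45 or 1.37-fold, and its other probe set went from 10.3 to 9.94 (-0.35). The difference was 2.61 times the probe set disagreement, against 3.51 times for Thrsp. Me1 ranked 118 from the bottom and stayed within 1.5-fold.

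The promoter windows of Thrsp and Me1 are printed because the pair was lower together. They are the 250 bases before the first RefSeq start of each gene (GRCm38.p6, minus strand for both), for Thrsp chr7:97417551-97417800 and for Me1 chr9:86695915-86696164, with matches in capitals.
Thrsp: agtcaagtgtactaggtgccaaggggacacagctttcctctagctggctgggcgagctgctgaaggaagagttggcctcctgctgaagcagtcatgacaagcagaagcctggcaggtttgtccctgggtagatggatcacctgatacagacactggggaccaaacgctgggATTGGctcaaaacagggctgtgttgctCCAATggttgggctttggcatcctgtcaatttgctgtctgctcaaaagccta
Me1: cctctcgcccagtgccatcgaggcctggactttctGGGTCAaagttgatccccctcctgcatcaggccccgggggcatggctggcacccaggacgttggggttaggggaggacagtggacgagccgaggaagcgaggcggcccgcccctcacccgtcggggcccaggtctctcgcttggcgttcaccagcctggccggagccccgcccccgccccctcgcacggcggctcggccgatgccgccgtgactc
In Thrsp the capitals mark CCAAT boxes, the first on the minus strand (from -79 to -75) and the next on the plus strand (from -52 to -48), and 33.8% of windows held CCAAT. In Me1 they mark GGGTCA, a variant of the nuclear receptor core (from -215 to -210), held by 11.6% of windows. The receptor core AGGTCA, held by 14.02% of windows, was not in either stretch, nor was the direct repeat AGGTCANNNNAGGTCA, which thyroid hormone receptors bind and which 5 of 32851 windows held. These letters are only what lies within 250 bases, and binding sites can lie further away. The search covered both strands with overlaps allowed, and besides these motifs and those given for Serpina7 it looked for the E-box CACGTG, which 6.02% of windows held. RefSeq windows were matched for 6 of the 8 genes. Before its first start Thrb held AGGTCA (from -184 to -179), and Slc16a10 held CCAAT at 2 places. Both also held the HNF1 core, and the window of Dio1 held none of the motifs.

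**Figure D3:**
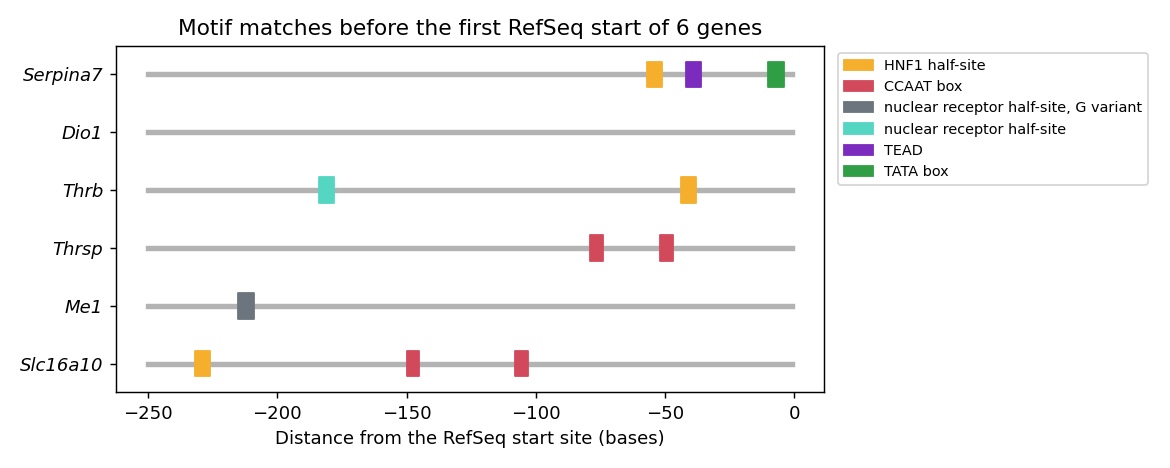
Motif matches (coloured blocks) in the 250 bases before the first RefSeq start of 6 of the genes; the horizontal axis is the distance from the start site in bases. Serpina7 has 3 matches within its last 60 bases, Thrsp has 2 CCAAT boxes, Me1 has 1 match and Dio1 has 0.

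Other hepatic genes known to be induced by thyroid hormone did not follow one direction. Of 23 listed, 16 were measured, 8 higher and 8 lower with a median of 0.006, beside 48.8% higher and 49.6% lower of all measured genes. At 2-fold, 2 were lower and 0 higher, beside 0.226% lower and 0.0968% higher of all measured genes. The list was chosen with earlier results known, so these shares are not a test. The genes past 2-fold were G6pc, the last enzyme of glucose release, from 11.9 to 10.0 (3.73-fold), and Cyp7a1, the first enzyme of bile acid synthesis, from 10.0 to 8.78 (2.39-fold). At the other end, the coactivator gene Ppargc1a differed by 0.50 with all 5 of its measured probe sets higher, and Cyp17a1 by 0.36. Klf9, a direct receptor target, went from 12.9 to 13.2 (0.23) with all 5 measured probe sets higher, the opposite direction to Thrsp and Me1, and it is named here after its values were seen. Hr, another direct target, was listed under the minimum at 5.23 on both arrays.

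Listed genes of lipogenesis and of NADPH and redox handling were mostly lower by small amounts. Of 17 lipogenic regulators and enzymes, 15 were measured, 12 lower and 3 higher with a median of -0.08 and 0 past 2-fold, beside 49.6% of all measured genes lower by any amount. Aacs (-0.33) and Elovl6 (-0.31) were lowest and the nuclear receptor genes Ppara (0.12) and Pparg (0.04) highest. Of 17 NADPH-making and redox genes, 14 were measured, 12 lower and 2 higher with a median of -0.15 and 0 past 2-fold. Nqo1 (-0.44), close to the -0.45 of Me1, and Srxn1 (-0.28) were lowest, and H6pd (0.26) and Keap1 (0.03) highest. Thrsp thus differed by more than any measured gene of both lists, and Me1 by slightly more than Nqo1. These are differences of single arrays and were not tested against other lists.

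**Figure D4:**
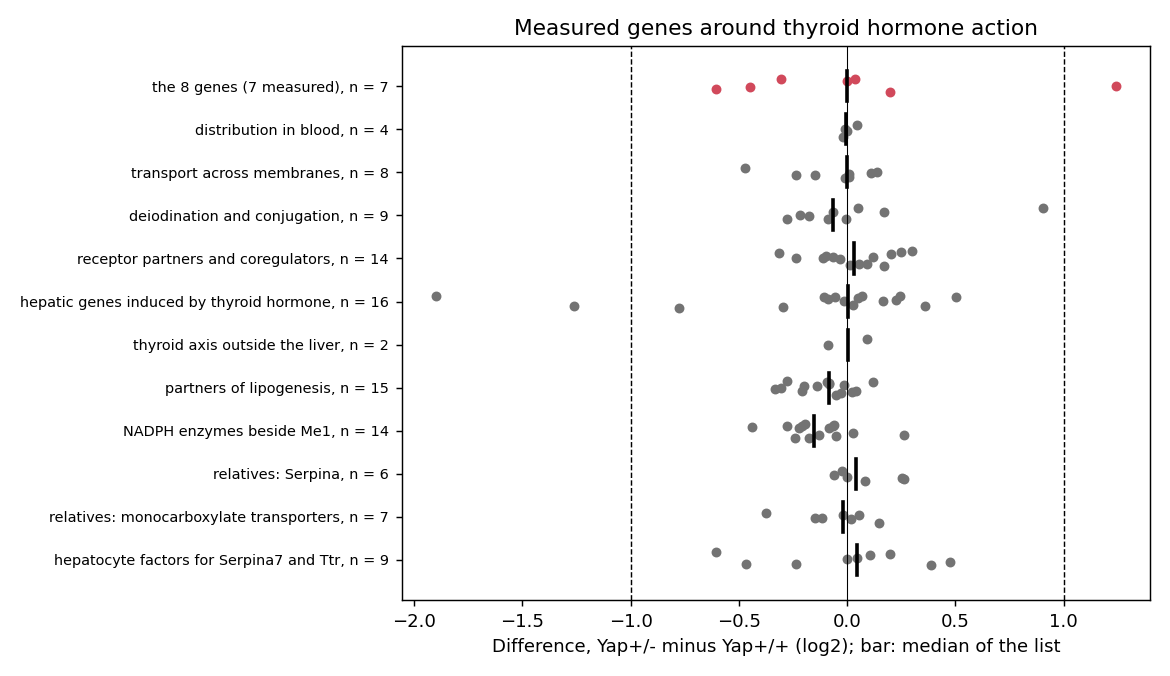
Difference, Yap+/- minus Yap+/+ (log2), of each measured gene (point) in the thyroid hormone set (red) and in lists of related genes (grey); black bars are list medians and dashed lines mark 2-fold. Medians lie between -0.15 (the row labelled NADPH enzymes beside Me1, which also holds redox genes) and 0.05 (hepatocyte factors). Serpina7, G6pc and Cyp7a1 are the points past 2-fold.

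Several features of the arrays and tissue ran alongside these differences, and their part in them was not tested. On its brighter probe set Yap1 went from 9.40 in Yap+/+ to 9.24 in Yap+/-, a difference of -0.15 within the probe set disagreement. Its other probe set went from 6.01 to 5.77 (-0.24), with a mean of 5.89 that is under the minimum. Both were lower, but Yap1 checks the labels only weakly. The excess of 3-prime over 5-prime signal was larger in Yap+/- for beta-actin (by 0.20), Gapdh (0.22) and pyruvate carboxylase (0.21) and smaller for the transferrin receptor (-0.04). Of the hepatocyte markers, a list that includes Ttr, 6 of 8 had a value, 4 higher and 1 lower. Their summed linear level was 135883 in Yap+/+ and 138097 in Yap+/-, so both pools read as liver. Alb, Apoa1 and Ttr sit near the top of the range, which leaves little room to see a difference. All 9 Kupffer cell and macrophage markers were higher, from a summed 9381 to 11800. Sinusoidal endothelial markers went from a summed 4514 to 5269, with 5 of 7 measured higher and 2 lower. Stellate and mesenchymal markers went from a summed 8419 to 7889, with 3 of 8 measured higher and 5 lower. Lowest among them were Acta2, from 9.05 to 7.92 (2.19-fold), and Tagln, from 7.88 to 7.13 (1.69-fold). Bile duct markers went from a summed 377 to 202. Of the bile duct list only Muc1 was measured, from 7.19 to 5.51 (3.19-fold lower), and it passed the minimum through its Yap+/+ value. With means under the minimum, Krt19 went from 6.73 to 4.83 and Sox9 from 5.56 to 5.81. Neutrophil markers went from a summed 116 to 249, the largest ratio of these lists at 2.14. Only S100a9 was measured, at 5.58 and 7.02, and it passed the minimum through its Yap+/- value. Under the minimum, S100a8 read 4.36 and 5.95, Ngp 4.49 and 5.03, and Camp 4.66 and 4.63, slightly lower. The summed rise thus lay mostly in S100a8 and S100a9. Lymphocyte markers went from a summed 212 to 267, also with 1 measured gene, Ccl5. Erythroid (230 to 248), exocrine pancreas (921 to 845), endocrine pancreas (131 to 132) and thyroid follicle (130 to 141) markers each had 1 measured gene, and the thyroglobulin gene Tg read 3.63 and 3.94. The measured exocrine gene, Cela1, read 9.48 and 9.52. With means under the minimum, Reg1 went from 5.82 to 4.05 and Ctrb1 from 6.41 to 5.13, while Prss2 read 5.66 and 5.44 and Cpa1 4.08 and 4.13. In pooled whole liver, fewer cells of a type and less RNA per cell cannot be told apart. Of the list named for the thyroid axis outside the liver, 2 of 10 genes were measured. Slc5a5 was just over the minimum at 6.33 and 6.42 (0.09). The iodotyrosine deiodinase gene Iyd read 10.9 and 10.8 (-0.09), well over the minimum in these livers despite the name of its list.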

How the data were processed

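Liver RNA of 1 pool per genotype was read on 1 array each. The authors deposited log2 probe set values made with RMA (background correction, quantile normalisation, probe summary) and Partek 6.5, per the submitters' processing notes, which are held here without settings. Sorted, the columns differed by at most 0.047, so an overall difference in RNA amount would largely be removed. Scanner files and detection calls were not used here. Names came from the platform annotation. Of the probe sets, 34945 of 45101 had exactly 1 symbol. Differences were taken without a test, since there is no replicate, and the number of arrays limits the precision. The members and lists were chosen with earlier results of these data known. Genes named are the members, Yap1, 2 genes at each end of a related list (those of the small carrier, thyroid axis and family lists in part), the 5 nearest to Serpina7, cell type markers and, outside this rule, Alb, Klf9, Hr and Dio2. Promoter sequences are from RefSeq (GRCm38.p6). Counting was tested on simulated data. Alternatives are in the closing section. Values were computed in Python 3.11.15 with pandas 2.3.3, statsmodels 0.14.6 for lowess, numpy 2.4.6 and matplotlib 3.10.9.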

Additional observations from a re-analysis of the deposited data

How the results depend on the processing

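The alternatives were no filter, a minimum mean of 7, the mean of all probe sets, only probe sets whose name has no _a, _s or _x suffix, centring on the median, lowess detrending, quantile normalisation, 64 added on the linear scale, and thresholds of 1.5-fold or 3-fold. Serpina7 has 1 probe set, without a suffix and with a mean of 8.97, so the filters and probe set choices could not move it. Centring could not either, as the median of measured genes was 0.00. Serpina7 read 1.24 with lowess detrending, 1.24 with quantile normalisation and 1.10 with 64 added, each past 2-fold. The deposited values were already quantile-normalised, so repeating that step could move it only slightly. Thrsp kept between -0.61 and -0.54, Me1 between -0.45 and -0.35 and Thra between -0.31 and -0.16. Dio1, also with 1 probe set, kept between 0.18 and 0.20. Ttr had no value without suffixed probe sets, and Slc16a10 read -0.14 as the mean of its probe sets. The median over the measured genes moved from 0.00 to -0.15 without Serpina7, to -0.15 without a filter, which adds Thrb, to -0.15 without suffixed probe sets and to -0.14 with the mean of all probe sets. With 64 added, Thrb read -0.14, and 4 of all genes were at least 2-fold higher and 13 lower. At 1.5-fold, 1 of the 8 genes (Thrsp) was lower, and 65 of all measured genes were higher and 60 lower. At 3-fold, 0 of the 8 were higher, and 0 of all measured genes were higher and 11 lower. Without a filter 37 genes were at least 2-fold lower, against 21. No paired analysis was possible because each genotype has 1 array, and for the same reason no replicate could be left out. Low signal limits Thrb and the dim probe sets of Slc16a10, and signal near the top of the range limits Ttr.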
